A study of Homo sapiens with 6 samples.

Results

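IL32 encodes interleukin 32, a cytokine that resembles no other interleukin in sequence. It was 1 gene of 18625 in the gene table, and it was chosen by its name and for the size of its difference between the groups described here. The libraries came from NB4 cells, a line from an acute promyelocytic leukemia that carries the PML-RARA fusion and is held at the promyelocyte stage. For 3 days the cells were given either DMSO, the solvent, or Tan I (Tanshinone I, a lipid-soluble compound of the Salvia miltiorrhiza root) at 10 μM. There were 3 libraries in each group, all from this single line, with no other genotype, dose or time. The comparison addressed which genes the leukemia cells express differently after the compound.

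Interleukin 32 is made mainly by T cells, natural killer cells, monocytes and epithelial cells, and its gene is absent from mice and rats. TNF, IL-1β, IL-18 and interferon-γ are known inducers of the gene. The protein is known to raise TNF, IL-1β, IL-6 and CXCL8 in myeloid cells through NF-kB and p38, and proteinase 3 (PRTN3) and integrins are among its reported binding partners.

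On GRCh38, IL32 (ENSG00000008517) lies on chromosome 16 from 3065297 to 3082192 on the plus strand in GENCODE release 44. Its canonical transcript has 7 exons and 818 bases. The annotation holds 35 transcripts, 30 of them protein-coding, with 26 distinct start positions and 12 distinct coding lengths from 393 to 702 bases. The deposited value is a sum over the gene, so the isoforms behind it cannot be told apart. The RefSeq table (GRCh38.p14) gives 2 starts for IL32, at 3065403 and 3065784. The stretch shown lies upstream of the first of these, because 3 of the 4 letter matches to an NF-kB motif in that promoter fall in it. Its end reaches just past the first transcript start of GENCODE, at 3065297. Capitals mark those matches and a palindrome of the cyclic AMP response element type.

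IL32 promoter, chr16:3065153-3065314, plus strand: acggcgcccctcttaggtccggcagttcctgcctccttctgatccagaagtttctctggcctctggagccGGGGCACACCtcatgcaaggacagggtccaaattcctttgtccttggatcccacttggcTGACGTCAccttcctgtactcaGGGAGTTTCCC

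Motifs were searched on both strands in the 250 bases before each of 35116 RefSeq starts. The NF-kB letters, GGG and CC with any 5 bases between them, matched 4 times before the first IL32 start, at 180, 99, 98 and 68 bases upstream, and the matches at 99 and 98 overlap on opposite strands in the run GGGAGTTTCCC. These letters are common, being present in 54.4% of the promoters. The CREB/ATF letters TGACG, found in 21.2% of promoters, matched on both strands of the palindrome TGACGTCA at 121 and 118 bases upstream. The AP-1 letters TGANTCA (6.57% of promoters), the STAT letters TTCNNNGAA (6.57%) and the interferon response letters, GAAA and GAAA with any 2 bases between them (3.02%), had no match before either IL32 start. Before the second start there was 1 match to the NF-kB letters. The AHR core GCGTG, present in 32.2% of promoters, matched there 2 times and the antioxidant response letters TGACNNNGC, in 10.9%, matched 1 time, while neither matched before the first. Of these, the AHR match at 3065645 and the antioxidant match at 3065673 lie past the start of the canonical transcript, at 3065640. A match is a run of letters and says nothing of a factor being bound.

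The level of IL32 is given as a normalized count, that is, reads on the gene divided by a size factor of the library. IL32 had a normalized count of 759 in DMSO 1, 1491 in DMSO 2 and 805 in DMSO 3. It had 2154 in Tan I 1, 3012 in Tan I 2 and 4295 in Tan I 3. The groups did not overlap, and the lowest Tan I library stood 1.44-fold above the highest DMSO library. DMSO 2 stood well above the other two DMSO libraries, which were close to each other, whereas the Tan I libraries were spread more evenly. The mean was 1018 ± 410 (SD, n = 3) with DMSO and 3154 ± 1078 (SD, n = 3) with Tan I, a ratio of 3.10. On the scale of log2(normalized count + 1), the difference was 1.64 (SE 0.33), a 3.13-fold difference of geometric means. Because IL32 was chosen for this contrast, the difference is a description and carries no test. In the bulk libraries, more IL32 RNA per cell and more cells with IL32 RNA cannot be told apart.

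**Figure D1:**
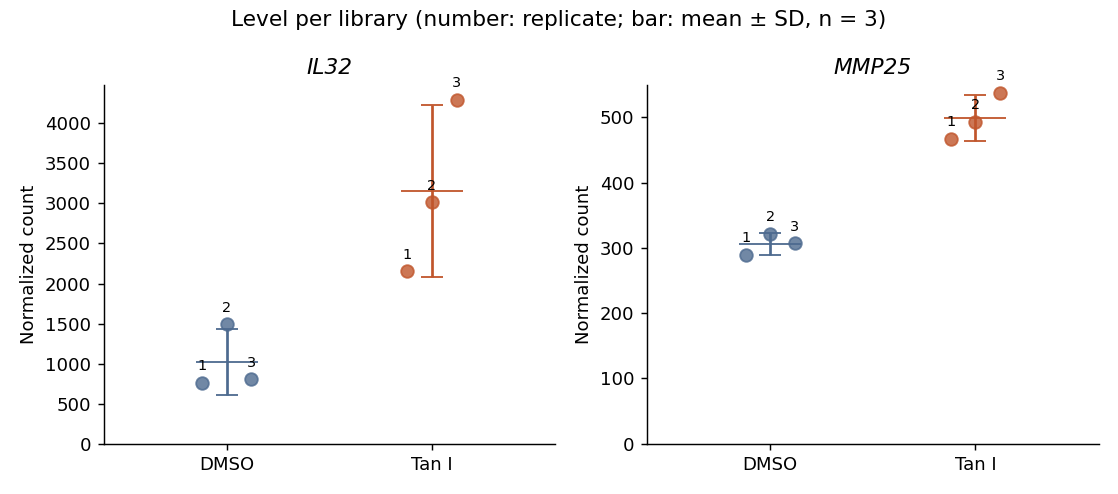
Normalized counts of IL32 (left) and of its upstream neighbour MMP25 (right) in each of the 6 NB4 libraries, numbered by replicate, with the mean ± SD of 3 libraries per group. For IL32 the DMSO libraries lie between 759 and 1491 and the Tan I libraries between 2154 and 4295, and for MMP25 the DMSO libraries lie between 289 and 322 and the Tan I libraries between 467 and 537.

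The reads behind these values were many. IL32 was covered by 814, 1548 and 1030 reads in DMSO 1 to 3 and by 2204, 2858 and 3221 reads in Tan I 1 to 3. Counting error alone was therefore 1.76% to 3.51% of a value. The spread between libraries of 1 group was far wider, with a coefficient of variation of 40.3% for DMSO and 34.2% for Tan I, and a highest value 1.96-fold (DMSO) or 1.99-fold (Tan I) the lowest. The ratio of Tan I to DMSO libraries with the same replicate number was 2.84, 2.02 and 5.34. Taken over every pairing of a Tan I with a DMSO library, the ratio ran from 1.44 to 5.66.

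The 6 libraries held 21502760 to 31679138 reads on listed genes, with size factors of 0.750 to 1.28, and the shallowest was Tan I 3. The first principal component of the 16887 tested genes, whose mean count was 10 or more, took 70.8% of the variance and did not separate the treatments: its scores were -48.0, 41.1 and -26.7 for DMSO 1 to 3 and -46.8, 8.65 and 71.6 for Tan I 1 to 3. With limma on log2(normalized count + 1), 408 genes (2.42%) were called, meaning an unadjusted p of at most 0.05 and a log2 fold change of 0.25 or more in size. Of these 223 (1.32%) were higher and 185 (1.1%) lower with Tan I. The count ran from 160 without Tan I 2 to 1496 without Tan I 1, and was 180, 201 and 271 without DMSO 1, DMSO 3 or Tan I 3. After Benjamini-Hochberg adjustment limma and edgeR called 0 genes (0.0%) and DESeq2 called 16, so each call below is unadjusted, and the adjusted p of limma was 0.999 for every gene whose unadjusted p is printed here.

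The level of IL32 moved with the first principal component inside each group. In DMSO the highest IL32 value was in DMSO 2, the library with the highest score of its group, and in Tan I it was in Tan I 3, again the highest score of its group. The order of IL32 followed the order of the scores in both groups. DMSO 1 and Tan I 1 had almost the same score, and between them IL32 differed by a ratio of 2.84. With the score as a covariate, the log2 difference was 1.43. Without DMSO 2 and Tan I 3 together it was 1.70. Both fits were chosen after the data were seen. The log2 difference ranged from 1.39 without Tan I 3 to 1.95 without DMSO 2 when single libraries were left out.

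**Figure D2:**
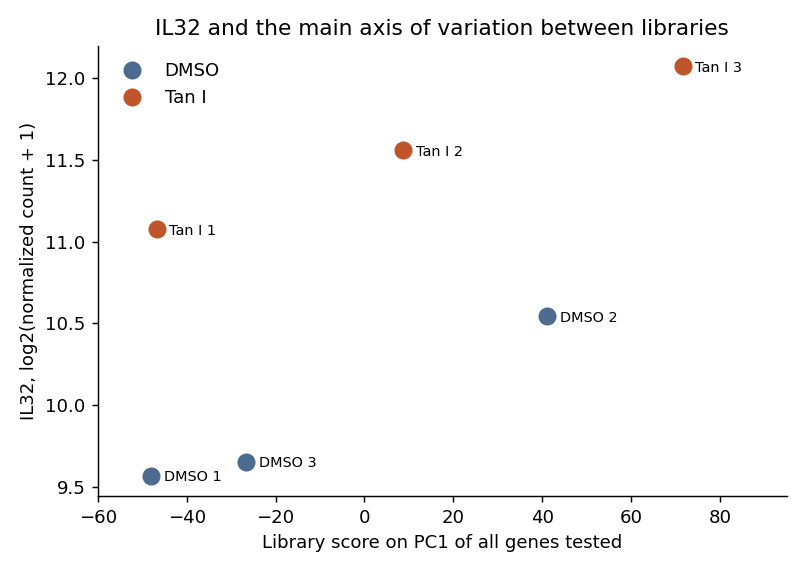
IL32 as log2(normalized count + 1) against the score of each library on the first principal component of 16887 genes, with DMSO in blue and Tan I in red. Within each colour the points climb with the score, and DMSO 1 and Tan I 1, which have nearly equal scores, lie 9.57 and 11.07 high on the vertical axis.

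To place IL32 among genes measured with like numbers of reads, the 100 genes next above and the 100 next below it by mean normalized count were taken. Their means ran from 2014 to 2159, around the IL32 mean of 2086. None of these 200 genes had a log2 difference as large as the 1.64 of IL32 in either direction, and none reached 1. Their differences had a median of 0.04 and quartiles of -0.04 and 0.13. The next largest positive differences were TNF at 0.38, LSM3 at 0.36, COG3 at 0.34, GLRX3 at 0.33 and DNAJC3 at 0.30. On the other side, EPX, the eosinophil peroxidase gene, stood at -0.90, followed by ZBTB44 at -0.32 and RREB1 at -0.23. The groups were separate for 15 of the 200 genes, against 7.89% of all genes tested. Tan I was the higher group for 12 of them, against 662 (3.92%) of all genes, and the lower group for 3, against 671 (3.97%). In those 12 genes the lowest Tan I value was at most 1.15-fold the highest DMSO value, compared with 1.44-fold for IL32.

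IL32 was also among the more variable genes of its level. The choice of the gene did not use this spread directly, but a choice by large difference favours variable genes. Its within-group SD was 0.52 on the log2 scale, against a median of 0.19 for the 200 genes, and it was higher than that of 98.5% of them. The 3 genes with a larger SD were KCNQ1OT1 (1.12), SLC5A3 (0.59) and ANKFY1 (0.58), none of which was near IL32 in its difference between treatments. After each library was rescaled to the same total, IL32 stood above 90.0% of the genes in SD.

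**Figure D3:**
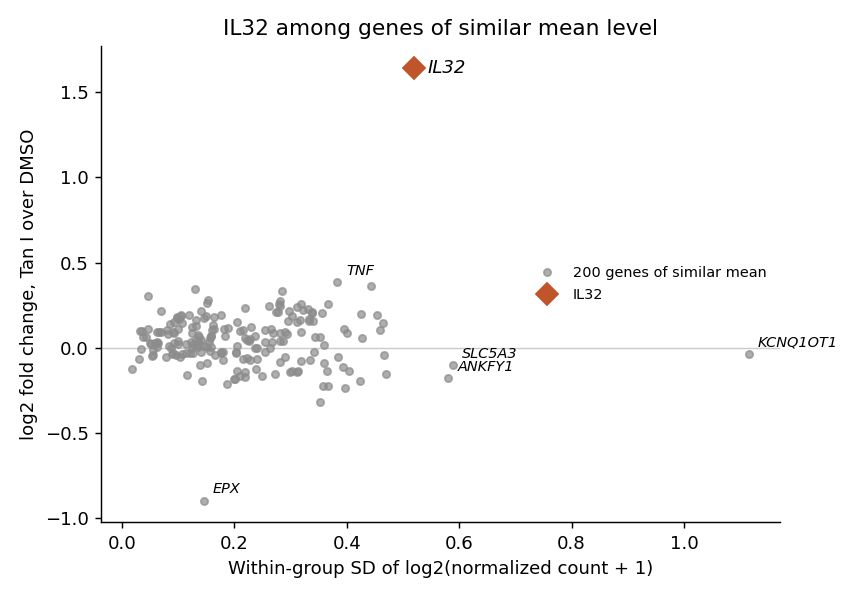
Difference of Tan I from DMSO in log2(normalized count + 1), vertical, against the SD within groups, horizontal, for IL32 (red diamond) and the 200 genes of similar mean normalized count (grey points). IL32 sits at 0.52 and 1.64, apart from the grey points, which lie between -0.90 and 0.38 on the vertical axis.

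Over all 16887 genes tested, IL32 had the 3rd largest positive log2 difference, and 13 genes had a negative difference larger in size. The 2 genes above it, named after their values were seen, were C1QA, a complement C1q chain, and CYP1A1, a cytochrome P450 that is the standard target gene of the aryl hydrocarbon receptor. C1QA was low with DMSO, at 14.9, 21.2 and 14.8 normalized counts, and reached 139.8, 184.4 and 277.4 with Tan I, a log2 difference of 3.45. CYP1A1 was near IL32 in level and in difference, with 1075, 1792 and 1250 normalized counts with DMSO, 3590, 3822 and 5498 with Tan I, and a log2 difference of 1.66. Both had DMSO 2 and Tan I 3 as the highest library of their group, as IL32 did. Among genes with a mean at or above that of IL32, CYP1A1 was the 1 gene with a larger positive difference.

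Per kilobase of canonical transcript, IL32 stood high among expressed genes even with DMSO. It had 928, 1823 and 984 normalized counts per kilobase in DMSO 1 to 3, above 89.1%, 94.0% and 89.2% of the 16825 genes with a length. In Tan I 1 to 3 it had 2634, 3682 and 5251, above 96.6%, 97.2% and 97.8% of them. IL32 was thus already expressed in NB4 cells given DMSO alone.

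Among the interleukin genes, IL32 had the highest level per kilobase of canonical transcript in both group means. With DMSO the margin was narrow, at 1245 against 1187 for CXCL8. Of 42 other interleukin genes in the list, 13 were in the table and 12 had a mean of at least 10. CXCL8, the neutrophil-attracting chemokine also called interleukin 8, came second, with 1305, 929 and 1326 normalized counts per kilobase with DMSO and 1640, 2075 and 2080 with Tan I. CXCL8 was above IL32 in DMSO 1 and DMSO 3 and below it in DMSO 2. With Tan I every IL32 value was above every CXCL8 value. The order rests on the canonical length, and IL32 has transcripts of other lengths that cannot be told apart here. Before division by length, the DMSO mean was 1949 for CXCL8 and 1018 for IL32. IL16 followed far behind, with group means of 68.2 (DMSO) and 62.7 (Tan I) per kilobase, then IL23A with 46.7 and 60.9 and IL1B with 35.1 and 54.1, and the library values of these neighbours overlapped. The remaining 8 genes (EBI3, IL18, IL17B, IL1RN, IL17D, IL36G, IL11 and IL1A) had group means between 4.59 and 30.8 per kilobase, and neighbours in this part of the order overlapped in their library values. CXCL8 was the 1 gene called of the 12, and it was higher with Tan I, as were 1.32% of all genes. The 12 had a median log2 difference of 0.22, against -0.002 for all genes tested.

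The nearest protein-coding gene with a call was MMP25, which encodes a membrane-anchored matrix metalloproteinase of neutrophils. MMP25 (ENSG00000008516) lies from 3046062 to 3060726 on the plus strand of chromosome 16, and its start is 19235 bases upstream of that of IL32. Its normalized counts were 289, 322 and 307 with DMSO and 467, 493 and 537 with Tan I, so the groups were well apart. The mean rose from 306 ± 16.4 to 499 ± 35.5 (SD, n = 3 each), with a log2 fold change of 0.70 (SE 0.13, limma unadjusted p = 0.000729). It was called without each library in turn, with fold changes of 0.65 to 0.75, and its adjusted p was 0.000837 in DESeq2, 0.00188 in limma with the principal component score as a covariate and 0.532 to 1.0 in the other alternatives. The covariate fit was chosen after the data were seen, with a score taken from the same libraries. MMP25 also followed IL32 across libraries. Over the 6 libraries Pearson's r of the log2 values was 0.957, higher than for 99.4% of the 12620 genes with a mean count of 50 or more, and for deviations from the group means it was 0.922, higher than for 76.9%. MMP25 was not alone in this, as TNFRSF12A, a called gene 46852 bases away, had a higher r by both measures (0.972 and 0.936). For deviations, uncalled genes of the region such as KCTD5 (r = 0.992) were also higher, while others such as SRRM2 (r = -0.993) ran opposite. These libraries share the treatment groups and the main axis of variation, and r is a description.

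Within 500 kb of the IL32 start, 92 other genes were annotated, 57 were in the table and 48 were tested. Of these 48, 3 were called higher and 1 lower, against 1.32% and 1.1% of all genes. Their median log2 difference was -0.05, and 22 of the 48 were higher with Tan I. The groups did not overlap for 4 genes that were higher and 3 that were lower with Tan I, against 3.92% and 3.97% of all genes. Besides MMP25, the genes that rose were MMP25-AS1, an antisense RNA gene at the MMP25 locus, from 715 ± 40.7 to 952 ± 137 normalized counts (log2 0.40, limma unadjusted p = 0.0233), and TNFRSF12A, the receptor of the cytokine TWEAK, from 149 ± 30.6 to 221 ± 33.1 (log2 0.58, limma unadjusted p = 0.0256), whose groups overlapped. ZNF75A, a zinc finger gene 240109 bases away, fell from 70.3 ± 17.7 to 38.7 ± 5.39 (log2 -0.82, limma unadjusted p = 0.0152). Of the 6 fits that leave out a library, MMP25-AS1 and TNFRSF12A were each called in 2 and ZNF75A in 5. The number called among the 48 genes was 2 without DMSO 2, DMSO 3 or Tan I 2, 12 without Tan I 1 and 8 with the principal component score as a covariate. Over all genes tested, the same fits called 466, 201, 160, 1496 and 1496 genes, in that order.

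The direct surroundings of IL32 were read with care for strand. AC108134.3 (ENSG00000262370), a long noncoding RNA gene on the minus strand from 3076911 to 3087112, overlaps the downstream end of the annotated IL32 gene. It had 122, 127 and 124 normalized counts with DMSO and 134, 170 and 155 with Tan I, and was not called. The strand setting of the counting is not given in the sources used here, so reads in the overlap could belong to either gene. Its total was far below that of IL32 in every library. MMP25-AS1, from 3037400 to 3059370 on the minus strand, covers most of MMP25, including its start, and its normalized counts were higher than those of MMP25 in every library. Without a known strand setting, the calls of MMP25 and MMP25-AS1 cannot be told apart by gene where they overlap. The deviations of MMP25-AS1 from the group means ran opposite to those of IL32 (r = -0.86), whereas those of MMP25 ran with them. The next tested protein-coding gene downstream by start position, ZNF213, had 248 ± 5.22 normalized counts with DMSO and 204 ± 15.2 with Tan I and was not called.

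**Figure D4:**
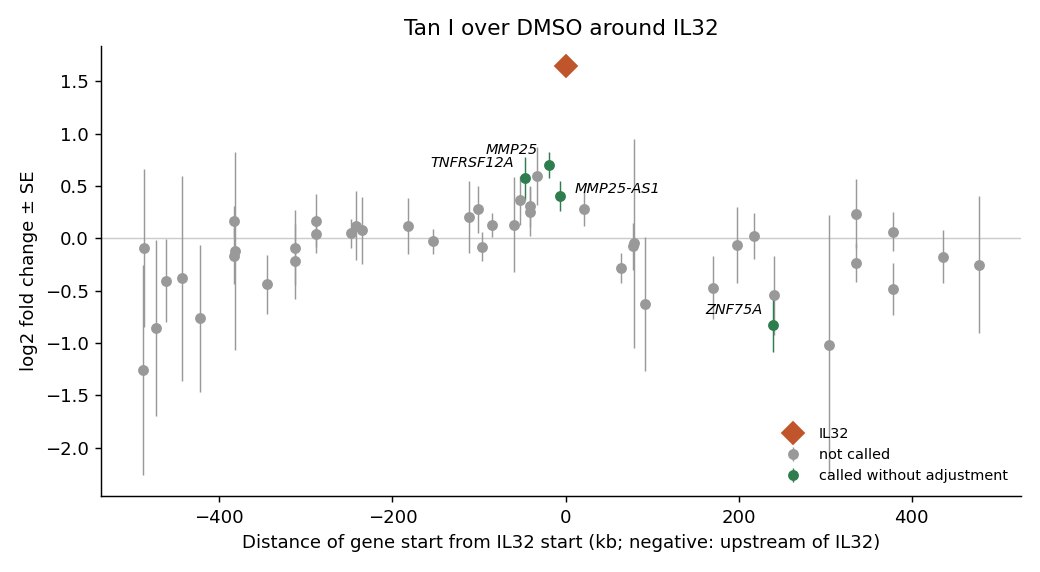
Log2 fold change (Tan I over DMSO, vertical) and its SE for the 48 tested genes within 500 kb of the IL32 start, by distance of their starts in kb, negative upstream, with called genes in green and IL32 as a red diamond. MMP25, MMP25-AS1 and TNFRSF12A are the green points above 0 on the upstream side, ZNF75A is the green point below 0, and IL32 at 1.64 lies above all of them.

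The genes around IL32 in function were read from 7 lists: its partners, its inducers and their receptors, the genes it induces, NF-kB, p38 and AP-1 and interferon response genes, and the interleukin family. Of 128 genes on these lists without IL32, many of them members of the interleukin list that are not known to act with IL32, 86 were in the table and 84 were tested. 6 were called higher and 1 lower, or 7 in all, against 2.42% of all genes in either direction. Their median log2 difference was 0.08, with 57 higher and 27 lower. The 7 calls were sensitive to single libraries: 2 genes were called without DMSO 1, Tan I 2 or Tan I 3, 3 without DMSO 3 and 16 without Tan I 1, and 16 were called with the principal component score as a covariate. The calls over all 16887 genes moved too. They were 180, 160 and 271 without DMSO 1, Tan I 2 or Tan I 3, and 201 without DMSO 3. Without Tan I 1, and also with the score as a covariate, they were 1496.

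None of the 7 tested binding and effector partners of interleukin 32 was called, and their median was 0.02. With 2.42% of all genes called, so short a list would hold few or no calls in any case. PRTN3, a neutrophil serine protease that binds and cleaves the cytokine, had 1767, 2340 and 1868 normalized counts with DMSO and 1083, 1877 and 1943 with Tan I, so the groups overlapped (log2 -0.32, limma unadjusted p = 0.220). ITGAV, the integrin αV chain, had 987, 703 and 856 with DMSO and 996, 718 and 647 with Tan I (log2 -0.12). PRKCD, PRKCE, PXN, STAT3 and CEBPA had differences between -0.10 and 0.11. ITGB3, ITGB6 and PTK2 were not analysed here.

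Among the inducers of IL32 and their receptors, 18 genes were tested, with 1 called higher and 1 lower, against 1.32% and 1.1% of all genes. TNFRSF1B, a TNF receptor, rose from 24.0 ± 6.39 to 41.3 ± 6.12 normalized counts (log2 0.78, limma unadjusted p = 0.0354). MYD88, the adaptor of Toll-like and IL-1 receptors, fell from 224 ± 27.0 to 166 ± 19.7 (log2 -0.43, limma unadjusted p = 0.0380). TNF itself had 1797, 1229 and 2525 normalized counts with DMSO and 2052, 2470 and 2450 with Tan I, with overlapping groups (log2 0.38, limma unadjusted p = 0.164). TNF was lowest in DMSO 2, the DMSO library in which IL32 was highest. IL1B was low, at 41.0, 63.6 and 53.9 with DMSO and 42.0, 65.3 and 137 with Tan I (log2 0.47, limma unadjusted p = 0.310), and IL18 was lower still, with means of 26.6 and 27.7 (log2 0.03). Each of the calls was lost without some single libraries: TNFRSF1B remained called in 2 and MYD88 in 1 of the 6 fits that leave out a library.

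Genes that interleukin 32 is known to induce in myeloid cells had a median difference of 0.47 over 7 tested genes, of which 6 were higher with Tan I and 1 was called higher, against 1.32% of all genes. CXCL8 rose from 2143, 1526 and 2178 normalized counts with DMSO to 2693, 3407 and 3415 with Tan I (log2 0.71, SE 0.18, limma unadjusted p = 0.00446), without overlap. It was called in each of the 6 fits that leave out a library, and its adjusted p was 0.0137 in limma with the principal component score as a covariate, 0.175 in DESeq2 and 0.532 to 1.0 in the other alternatives. The covariate fit was chosen after the data were seen, with a score taken from the same libraries. The chemokine genes CCL2, CCL3 and CCL4 had differences of 0.98, 0.44 and 0.55 but overlapping groups, with limma unadjusted p-values of 0.0551, 0.202 and 0.0690. CXCL2 was at -0.33, and IL6 was not analysed here.

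In the NF-kB list, 4 of 16 genes were called, all higher with Tan I, against 1.32% of all genes, and the median was 0.14. NFKB2, which encodes the p100 subunit precursor, had 2516, 2529 and 2792 normalized counts with DMSO and 2899, 3427 and 3482 with Tan I (log2 0.32, limma unadjusted p = 0.0301). BIRC3, an inhibitor of apoptosis and NF-kB target, rose from 63.5 ± 17.2 to 98.9 ± 7.94 (log2 0.66, limma unadjusted p = 0.0310). ICAM1, an adhesion molecule, rose from 305 ± 70.5 to 441 ± 41.6 (log2 0.55, limma unadjusted p = 0.0220). NFKBIA, the inhibitor that feeds back on NF-kB, had overlapping groups, with 929, 870 and 1022 normalized counts against 974, 1360 and 1411 (log2 0.39, limma unadjusted p = 0.0490). TNFAIP3, another feedback inhibitor, had means of 638 in both groups (log2 0.02), and RELA, NFKB1 and REL were not called. Of the 4 calls, NFKB2, BIRC3 and ICAM1 were each retained in 2 of the 6 fits that leave out a library and NFKBIA in 1.

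The other signalling lists held no call: 0 of 14 p38 and AP-1 genes, with a median of 0.08, and 0 of 15 interferon response genes, with a median of 0.06. With 2.42% of all genes called, lists this short would hold few or no calls in any case. In the first list, the immediate early genes FOS, FOSB, JUN and DUSP1, named after their values were seen, set DMSO 2 apart. FOS had 476 normalized counts there against 1660 and 2227 in the other DMSO libraries, while Tan I 1 to 3 had 1259, 1257 and 1162. Other AP-1 genes of the list did not share this drop. JUNB had 671, 680 and 835 in DMSO 1 to 3, and among DMSO libraries JUND, FOSL1 and FOSL2 were highest in DMSO 2. IL32 was highest in that DMSO library. Whether these differences between DMSO libraries bear on IL32 was not tested.

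**Figure D5:**
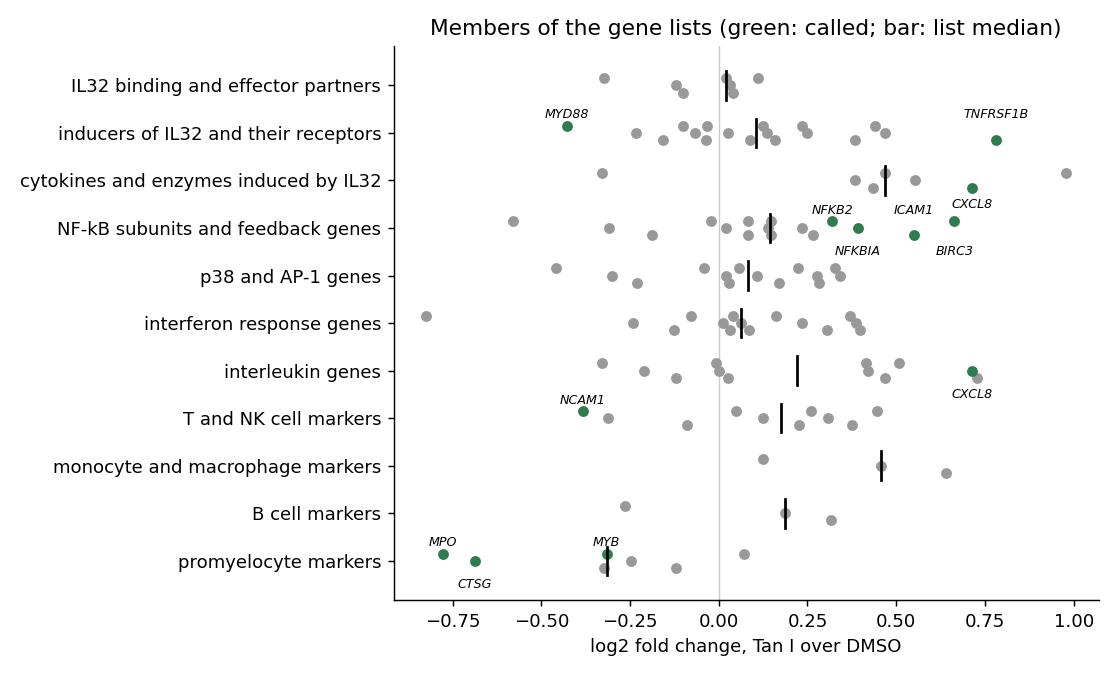
Log2 fold change (Tan I over DMSO, horizontal) for each tested member of the pathway and marker lists, 1 point per gene, with called genes in green and the list median as a black bar. The 4 green NF-kB points and CXCL8 lie to the right of 0, MYD88, NCAM1 and the promyelocyte genes MPO, CTSG and MYB lie to the left, and the binding partners, none called, lie between -0.32 and 0.11.

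Since T cells, natural killer cells and monocytes are usual sources of IL32, their markers were read beside it. Of 20 T and NK cell markers, 11 were in the table, and their summed normalized counts were 3515 to 3943 with DMSO and 3183 to 3618 with Tan I. Of the 10 tested, 7 were higher with Tan I, with a median log2 difference of 0.18. None was called higher, and NCAM1 fell (log2 -0.38, limma unadjusted p = 0.0126), against 1.32% and 1.1% of all genes called. The 4 listed monocyte and macrophage markers summed to 473 to 531 with DMSO and 516 to 570 with Tan I, with 0 of 3 tested genes called, against 2.42% of all genes. All 3 were higher with Tan I, with a median of 0.46. For 3 B cell markers the sums were 516 to 801 and 556 to 914, with 0 called, against 2.42% of all genes. Single markers ran from low to moderate, with group means of 10.3 (DMSO) and 13.6 (Tan I) for CD3E, 11.3 and 16.7 for CD14 and 14.0 and 20.1 for CSF1R, but 313 and 371 for CD3D, 455 and 556 for NKG7, 461 and 575 for CD79B and 464 and 506 for FCN1. No marker in the table was at 0 in all libraries, which says nothing of the markers that were not in it. NCAM1, with means of 2069 and 1586, made up the largest share of the T and NK cell sum, and FCN1 that of the monocyte sum. Their part in the IL32 difference was not tested.

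Of 8 promyelocyte markers, the 7 in the table were all expressed, from CEBPE with group means of 287 and 259 to MPO, and ELANE was not analysed here. 3 of the 7 were called lower, against 1.1% of all genes. MPO, the myeloperoxidase of primary granules, fell from 62588 ± 1950 to 36602 ± 3113 normalized counts (log2 -0.78, limma unadjusted p = 0.000988). CTSG, the cathepsin G gene, fell by 0.69 and MYB, a transcription factor of progenitors, fell by 0.32 on the log2 scale (limma unadjusted p = 0.0262 and 0.0276). Leaving out each library in turn, MPO was called in 6, CTSG in 3 and MYB in 2 of 6 fits. The summed markers went from 74470 to 81142 with DMSO to 44829 to 53152 with Tan I, and MPO made up most of these sums. PRTN3, AZU1 and CEBPE were lower without a call (log2 -0.32, -0.25 and -0.12), and CD33 was slightly higher (log2 0.07). The fall of MPO moved with the treatment as IL32 did, and its part in the IL32 difference was not tested.

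The genes whose log2 values ran most like those of IL32 over the 6 libraries were, among the same 12620 genes, MELK (r = 0.998), DEPDC1B (0.997), NQO1 (0.996), RGS20 (0.992), SEC63 (0.992), PRSS36 (0.988), KRT79 (0.987), SIGLEC12 (0.986), NCF1 (0.986) and ZFPM2-AS1 (0.985). All 10 had every Tan I library above every DMSO library, as the measure favours. They differed in size from IL32, with log2 differences from 0.09 in SEC63 to 1.40 in KRT79. NQO1, an oxidoreductase gene known as a target of NRF2 and of the aryl hydrocarbon receptor, was nearest in level, with 956, 1700 and 1080 normalized counts with DMSO and 2083, 2514 and 3399 with Tan I (log2 1.11). NCF1, a subunit of the phagocyte NADPH oxidase, had 60.6, 85.7 and 73.5 with DMSO and 114, 143 and 179 with Tan I (log2 0.97). In all, 305 genes (2.42%) had r above 0.9 and 156 had r below -0.9.

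With the group means removed, so that only the spread between libraries of a group remained, the most similar genes were different ones. Among them were B4GALT2, S100A4, SUPV3L1, ZC3HC1, PGRMC2, TMEM9B, TXNDC15, DNTTIP2 and ITPK1, with r of deviations from 0.999 to 1.0, and no gene was in both lists of 10. None of these named genes was called and all had overlapping groups. S100A4, a calcium-binding protein gene, had 949, 1969 and 1017 normalized counts with DMSO and 1170, 1699 and 2504 with Tan I, close to IL32 in its DMSO values. Likeness of this kind was common, since 3436 genes (27.2%) had r of deviations above 0.9.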

How the data were processed

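The authors used STAR to align paired-end reads of the NB4 libraries to GRCh38, dropped those with several mapping positions, counted the others per gene with featureCounts and normalized them with DESeq2. Versions, annotation release and strand setting are not given in the sources used here. The deposited signal values are read counts divided by a size factor per library. In each library 100% of them were whole multiples of the value of 1 read within 0.001 reads, so that reads could be recovered. The authors' own comparison in the same table (mean, log2 fold change, standard error, Wald statistic, p and adjusted p) was not used, and no other per-sample column was present (0).

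Samples were grouped by their labels. The columns named con were taken as the DMSO libraries, the single untreated group in the labels. Nothing in the labels says that the libraries of a group are separate cultures, so p-values measure the spread between these libraries, which may be technical.

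The 16887 genes whose mean count was 10 or more were tested (1738 were left out) with limma 3.58.1 (lmFit, eBayes with trend; R 4.3.3) on log2(normalized count + 1). Treatment was the single term, and p-values were adjusted by Benjamini-Hochberg over all of them. Fold changes on this scale understate those of low genes. Since the values are normalized, count tests served as alternatives: edgeR 4.0.16 (quasi-likelihood) and DESeq2 1.42.0 on recovered reads. The main limma fit and both count tests were run on simulated counts with known changes, and the other alternatives were not. Those counts were drawn separately for each gene, without the main axis of variation between libraries, so they do not show how the fits behave under it. Gene positions and lengths are from GENCODE release 44 and promoters from RefSeq.

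IL32 and the gene lists were chosen with earlier results of these data known. Named were members of the lists that were called, a few cytokine genes whatever their values, genes around IL32 that were called or nearest, and the 10 genes most like IL32 by each of the measures of r. A gene that the last part of the rule selects is not reported here. Alternatives were a pseudocount of 0.1 or 10, no filter on low values or a minimum of 50, quantile normalization, scaling to equal totals, eBayes without trend, both count tests, a replicate block, leaving out each library, windows of 250 and 1000 kb, and 100 or 400 genes of similar mean.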

Additional observations from a re-analysis of the deposited data

How the results depend on the processing

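The log2 difference of IL32 kept its direction in all 18 alternatives and ranged from 1.39 to 1.95 (1.39 to 1.95 with single libraries left out). The filters on low values, eBayes without trend and the replicate block cannot change this difference, which stays at 1.64. IL32 was chosen for this contrast, so the tally is a description. The rank of IL32 above all genes of similar mean was kept in all 13 alternatives (100%), where that of the replicate block is fixed by construction. The share of those genes with a smaller SD was 90.0% after rescaling to the same total and 96.5% to 99.0% with single libraries left out. With single libraries left out, the unadjusted calls ran from 160 to 1496, those within 500 kb from 2 to 12, those on the pathway lists from 2 to 16 and the adjusted calls from 0 to 0. DESeq2 gave 16 adjusted calls and MMP25 a log2 fold change of 0.70 with adjusted p = 0.000837. Rescaling to the same total gave 438 unadjusted calls, 188 higher and 250 lower, against 223 and 185. 2 alternatives were chosen after seeing the data. The first principal component as a covariate gave 1496 unadjusted and 194 adjusted calls, 8 within 500 kb, 16 on the lists and 0.67 for MMP25 (adjusted p = 0.00188). Without DMSO 2 and Tan I 3 together there were 2 adjusted calls, and NFKB2, NFKBIA, TNFRSF1B and MYB were no longer called.

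With the replicate number as a block, the IL32 difference stayed at 1.64 by construction and 348 genes were called unadjusted. TNFRSF1B and MYD88 were no longer called. The numbers were not shown to pair the libraries: deviations of same-numbered libraries correlated at 0.75, -0.09 and -0.45. With 3 libraries a group, the spread of IL32 between libraries was wider than its counting error.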
